A study of Mus musculus with 10 samples.

Results

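The genes of the mitochondrial ribosomal proteins were followed in the prefrontal cortex of arthritic and control mice. They were taken as the array probes whose single gene symbol in the platform annotation begins with Mrpl or Mrps and a digit. The rule gave 52 probes for 52 genes, 34 named for the large subunit and 18 for the small subunit, among 9078 annotated probes. The collagen group was male DBA/1 mice, 8 weeks old, given type II collagen (100 µl, in the same volume of Complete Freund's adjuvant) and LPS at day 24. The control group was male DBA/1 mice of the same age given 200 µl of the adjuvant and the same LPS. DBA/1 mice, an inbred strain, become arthritic when immunised with collagen. Both groups carried adjuvant and LPS, so the ratio holds collagen together with the smaller adjuvant volume. Each of 10 arrays, printed in-house with oligonucleotides, carried RNA of both groups in 2 dyes. The arrays form 5 dye-swap pairs that the titles number 1, 2, 3, 1 and 2, with 3 biological replicates named in the series text. Pairs 1 and 4 made replicate 1, pairs 2 and 5 replicate 2, and pair 3 alone replicate 3. The number of mice behind a replicate is not stated.

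Mitochondria keep ribosomes of their own, which translate the few proteins that mitochondrial DNA encodes, all of them core subunits of the respiratory chain and the ATP synthase. The ribosomal RNAs come from mitochondrial DNA, but every mitochondrial ribosomal protein is encoded in the nucleus, made in the cytoplasm and imported. The small subunit holds the messenger RNA and the decoding centre, and the large subunit holds the peptidyl transferase centre and the exit tunnel. Many of the proteins descend from bacterial ones (Mrpl3, Mrpl4, Mrps12), and others exist only in mitochondria (Mrpl51, Mrps22). Cortical neurons depend on oxidative phosphorylation for synaptic transmission, and so on this translation machinery. Known regulators of nuclear genes for mitochondrial proteins include NRF-1, the ETS-family factor GABP (also called NRF-2) and YY1.

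The promoters of the members hold the motifs of these regulators at higher shares than the genes on the array as a whole, a description that was not tested. RefSeq promoter windows of GRCm38.p6, from 250 bases before to 50 bases after the annotated start, were matched by gene for 46 of the 52 members. All motifs were read on both strands. The NRF-1 motif, shown in capitals in the promoter of Mrpl39 printed here and taken with any base at the fifth position, was in 11 of 46 windows (23.9%), against 8.42% of the windows of 6913 genes on the array and 4.78% of all 27025 windows. The ETS motif CCGGAAG was in 17 of 46 (37.0%), against 13.9% of genes on the array. The YY1 motif AAGATGGCG was in 4 of 46 (8.70%), against 2.47%. The ETS and YY1 motifs can share letters, but in 0 members did motifs of different names overlap. At least 1 of the NRF-1, ETS and YY1 motifs was in 28 of 46 members (60.9%), against 22.5% of genes on the array. TATAAA, the core of a TATA box, was in 4 members (8.70%), against 10.2%. The median member window held 21.5 CpG dinucleotides, against 17 on the array, so base composition differs too. Nuclear oxidative phosphorylation genes had the NRF-1 motif in 26.5% of 49 windows, the ETS motif in 22.45% and at least 1 of the NRF-1, ETS and YY1 motifs in 48.98%. Cytoplasmic ribosomal protein genes had 14.29%, 32.1% and 53.57% of 28 windows in the same order. Both groups thus also lay above the genes on the array. NRF-1 motifs were in 9 of 29 large subunit windows (31.0%) and 2 of 17 small subunit windows (11.8%), and ETS motifs in 9 (31.0%) and 8 (47.1%). A match describes the letters and is not a bound site.

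**Figure D1:**
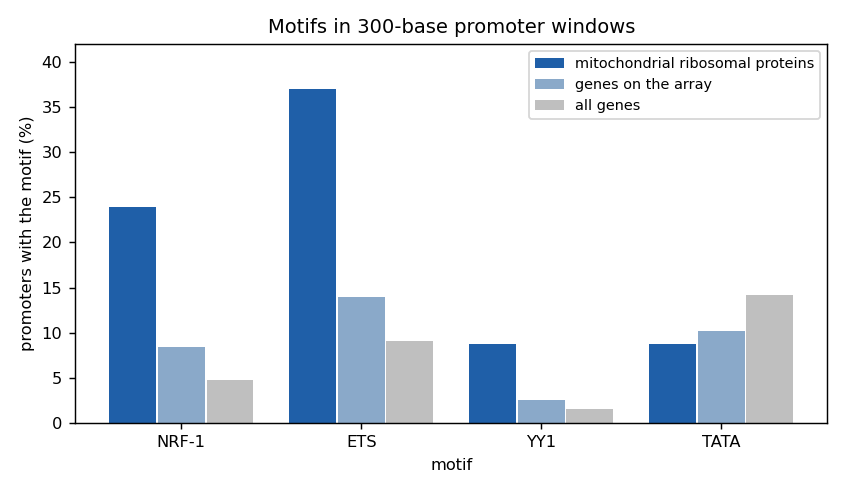
Share of 300-base promoter windows (y axis, percent) that hold each of 4 motifs (x axis), for 46 mitochondrial ribosomal protein genes, 6913 genes on the array and 27025 genes of the RefSeq table. The ETS motif has the tallest member bar, 37.0%, and only the TATA bar of the members lies below that of the array genes.

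The promoters of 4 tested members, chosen among those whose motifs lie wholly before the start, are printed to show how the motifs sit. The 250 bases before the start of Mrpl51 (chr6:125191950-125192199, plus strand, GRCm38.p6) and of Mrps18c (chr5:100798509-100798758, plus strand) each hold an ETS motif. That of Mrps18c lies on the opposite strand and so reads CTTCCGG, and the NRF-1 motif of Mrpl17 is reversed likewise. Those of Mrpl39 (chr16:84735245-84735494, minus strand) hold an NRF-1 motif, and those of Mrpl17 (chr7:105811088-105811337, minus strand) hold both. Sequences run 5′ to 3′ along the gene's strand and capitals mark the motifs.
Mrpl51: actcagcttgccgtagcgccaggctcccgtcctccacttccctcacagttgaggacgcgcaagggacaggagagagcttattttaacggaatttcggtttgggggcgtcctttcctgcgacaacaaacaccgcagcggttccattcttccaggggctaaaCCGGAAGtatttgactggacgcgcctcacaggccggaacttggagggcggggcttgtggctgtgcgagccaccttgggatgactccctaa
Mrpl39: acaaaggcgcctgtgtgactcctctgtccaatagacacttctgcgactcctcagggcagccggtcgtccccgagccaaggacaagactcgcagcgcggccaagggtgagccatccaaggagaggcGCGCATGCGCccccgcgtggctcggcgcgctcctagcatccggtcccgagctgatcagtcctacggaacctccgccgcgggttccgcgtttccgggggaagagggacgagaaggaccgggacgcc
Mrps18c: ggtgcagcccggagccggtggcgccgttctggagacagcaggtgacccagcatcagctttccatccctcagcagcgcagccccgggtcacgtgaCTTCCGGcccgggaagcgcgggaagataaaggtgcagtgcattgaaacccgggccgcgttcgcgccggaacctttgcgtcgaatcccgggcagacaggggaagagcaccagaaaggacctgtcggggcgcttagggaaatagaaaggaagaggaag
Mrpl17: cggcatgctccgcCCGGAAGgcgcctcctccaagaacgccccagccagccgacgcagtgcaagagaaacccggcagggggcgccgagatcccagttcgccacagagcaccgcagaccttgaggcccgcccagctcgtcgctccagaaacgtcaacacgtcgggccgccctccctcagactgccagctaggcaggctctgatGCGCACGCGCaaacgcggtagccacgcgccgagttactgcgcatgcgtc
The NRF-1 motif of Mrps9, the member with the highest ratio, begins 5 bases before the start and runs across it, so it is not printed. Among tested members the median log2 ratio of collagen over control was 0.03 for the 7 with an NRF-1 motif and 0.00 for the 22 without. It was -0.07 for the 13 with an ETS motif and 0.02 for the 16 without.

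Spots with both channels measured made up 45.2% to 85.9% of the annotated probes of an array. Neuronal markers were bright (6 of 7 had a probe, and Snap25, a synaptic vesicle fusion protein, lay at the 99.9th intensity percentile), as was the astrocyte transporter gene Slc1a3 at the 92.9th. The oligodendrocyte genes Mag and Mal were measured, whereas endothelial, choroid plexus and blood markers had no probe. The neuronal list had a median log2 ratio of -0.13 over its 6 tested probes, the oligodendrocyte list 0.14 over 2 and the microglial list -0.15 over 2, and the part of cell makeup in the members' ratios was not tested. In such bulk tissue fewer cells of a type and less RNA per cell cannot be told apart. One probe for Xist, the RNA of the silenced X chromosome of female cells, was higher in collagen on 7 of 9 arrays, and a second on 6 of 6, although all mice are labelled male. The second had log2 ratios of 1.72 to 6.65. It was positive in pairs 1, 3, 4 and 5 and not measured in pair 2, where the first probe averaged 0.02. The probes differed in pair 4, with an average of -0.20 for the first and 5.82 for the second. The first probe therefore cannot stand in for the second in pair 2. Whether the groups differ in sex was not tested. In pair 2 alone the large subunit had a median log2 ratio of -0.04 and the small subunit -0.07. Values by pair are given below for most of the named genes, and the other members have only means, ranges or counts. Directions are likely rather than settled throughout, because no file header says which dye a channel letter means. Channel A was taken as Cy3, and the other assignment would turn every sign.

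The members were moderately bright on the array. Their intensity, as log2 over the median of the channel on each array and averaged over arrays, lay at a median percentile of 78.3 among annotated probes, with 46 of 51 above 50. The cytoplasmic ribosomal proteins lay at 98.4 and the oxidative phosphorylation genes at 96.2. The large subunit median was 77.4 and the small subunit median 80.4. In log2 over the array median, the large subunit had 0.51 in the collagen channel and 0.60 in the control channel, and the small subunit 0.64 and 0.73 in the same order. Intensity depends on the probe, so these ranks do not order transcript amounts between genes.

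The brightest of the large subunit were Mrpl4, whose bacterial relative lines the exit tunnel, and Mrpl11, of the base of the factor-binding stalk. Mrpl4 had 1.99 ± 0.77 in the collagen channel and 1.98 ± 0.88 in the control channel, and Mrpl11 1.88 ± 1.12 and 1.90 ± 1.18 (SD over 10 arrays). The dimmest were Mrpl21, with -0.65 ± 0.31 in collagen and -1.39 ± 0.92 in control (4 arrays), and Mrpl45, which ties the ribosome to the inner membrane, with -1.07 ± 1.29 and -0.72 ± 0.81 (6 arrays). In the small subunit Mrps14, a protein of the head, had 1.52 ± 2.25 in collagen and 1.57 ± 1.93 in control (9 arrays), and Mrps33 had 1.38 ± 1.47 and 1.36 ± 1.83 (9 arrays). Mrps6 was the dimmest there with -0.69 ± 1.38 and -0.83 ± 1.30 (7 arrays), next to the mitochondrion-specific Mrps22 with -0.36 ± 1.03 and -0.37 ± 1.02 (6 arrays). In each of these 8 genes the distance between the channels was smaller than the spread over arrays in at least 1 of them, for Mrpl21 in the control channel only. Both channels are read on the same array, so this spread between arrays cannot tell whether they differ.

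**Figure D2:**
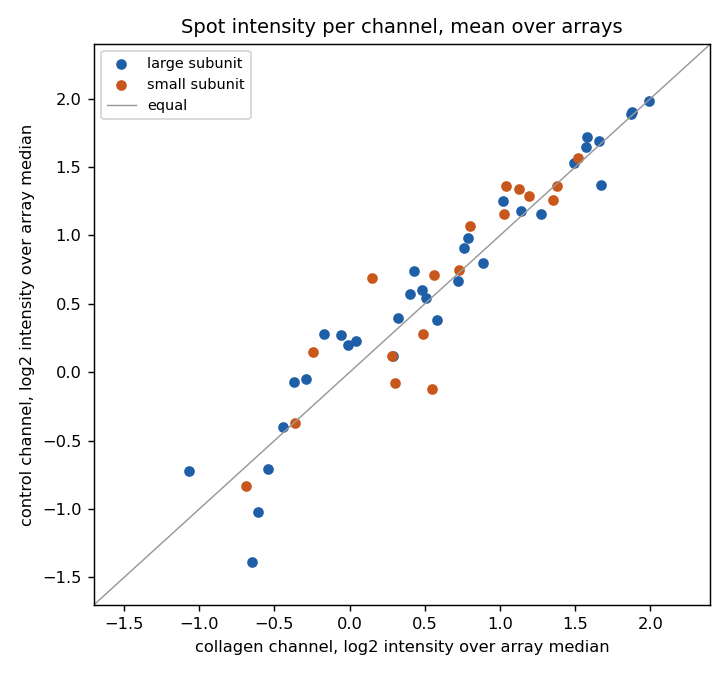
Mean log2 spot intensity over the array median in the collagen channel (x axis) and the control channel (y axis) for 51 genes, large subunit in blue and small subunit in orange, with the line of equal values. The genes run from Mrpl4, near the line at 1.99 and 1.98, down to the dim Mrpl45 at -1.07 and -0.72. Mrpl21, at -0.65 and -1.39 over 4 arrays, and Mrps9, at 0.55 and -0.12, lie off the line.

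Measurement was uneven between channels. Channel A was detected in 97.5% of member spots and channel B in 78.1%, against 97.9% and 65.6% of all annotated spots. Both channels were measured on all 10 arrays for 19 members (36.5%), against 20.3% of annotated probes. Mrpl44, which has an RNase III-like fold, was read in channel A on 10 arrays and in channel B on none, so it has no ratio. Mrpl21 had a ratio on 4 arrays but in no complete pair. A value in all 3 replicates, needed for the test, was present for 33 members, 22 large and 11 small. Of these, 19 were measured in 5 pairs, 3 in 4 pairs and 11 in 3 pairs. The other 19 members, 12 large and 7 small, were not tested, and 18 of them lacked pair 3. On that pair 14 of the 19 had a ratio on the array with collagen on Cy3 but only 3 on the array with collagen on Cy5. The 17 untested members with any pair value gave 22 positive and 25 negative values, from -0.81 to 0.34.

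No shift of either subunit was seen in arthritic cortex. Of 33 tested members 17 were higher in collagen and 16 lower, with a median log2 ratio of 0.00. The large subunit split 11 and 11 (median 0.00, from -0.29 to 0.29) and the small subunit 6 and 5 (median 0.01, from -0.35 to 0.44). Over all 4125 tested probes the median was -0.02, with 45.45% higher. The medians of the large subunit in replicates 1, 2 and 3 were 0.01, -0.02 and -0.12, a mean of -0.04 ± 0.07 (SD, n = 3), and those of the small subunit 0.12, -0.01 and -0.10, a mean of 0.00 ± 0.11. The subunit medians thus lay within their spread over replicates of each other and of 0.

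The medians by pair were taken over every measured member, those by replicate over the tested members alone. In pair 3 the large subunit thus gave -0.04 over 23 members, against -0.12 over the 22 tested ones in replicate 3. By pair the large subunit medians were 0.03, -0.04, -0.04, 0.05 and -0.03 in pairs 1 to 5. The small subunit gave -0.03, -0.07, -0.10, 0.14 and -0.01. The small subunit was the lower one in 3 of the pairs and the higher one in 2, so neither subunit led throughout. Structures of the mammalian ribosome place Mrps18a in the large subunit, and Mrps36 is now known as a part of the 2-oxoglutarate dehydrogenase complex. With Mrps18a counted as large and Mrps36 left out, a choice made after the data were seen, the medians were 0.004 for 23 large and 0.010 for 9 small members.

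**Figure D3:**
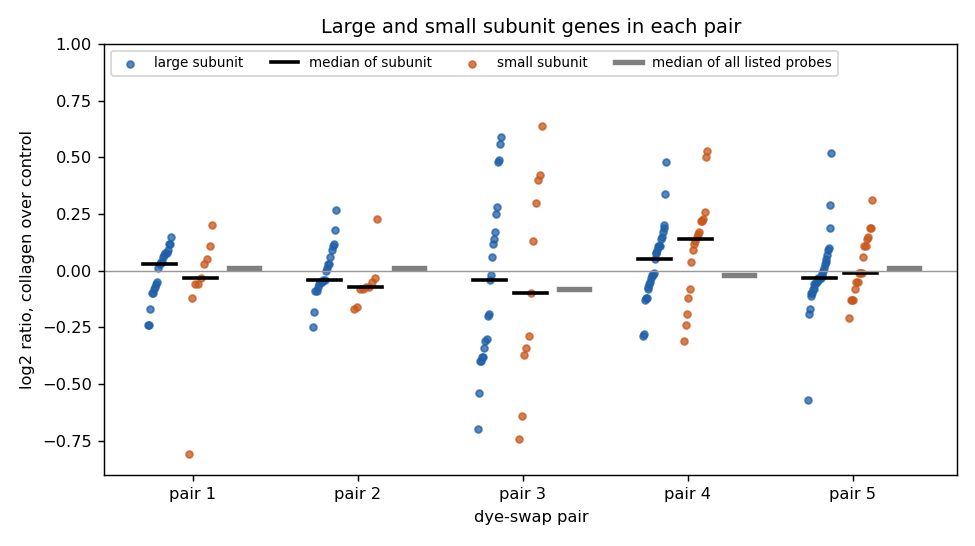
Log2 ratio of collagen over control (y axis) of every measured large subunit (blue) and small subunit (orange) gene in each dye-swap pair (x axis), with the subunit medians in black and the median of all annotated probes in grey. The medians stay between -0.10 and 0.14, and the genes spread most widely in pair 3.

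The groups set beside the members lay more to the higher side. Of 34 tested cytoplasmic ribosomal protein probes 30 were higher in collagen, with a median of 0.11 and replicate medians of 0.18, 0.06 and 0.11. Of 52 tested oxidative phosphorylation probes, which include many partners of the mitochondrially made subunits, 42 were higher, with a median of 0.08 and replicate medians of 0.15, -0.03 and 0.13. Their medians also turned sign with the dye. The cytoplasmic ribosomal probes had 0.33 with collagen on Cy5 and -0.09 with collagen on Cy3, and the oxidative phosphorylation probes 0.29 and -0.09. None of the cytoplasmic ribosomal probes and 1 of the oxidative phosphorylation probes (1.92%) had an unadjusted p under 0.05, against 6.67% of all tested probes. The differences between lists were not tested.

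After Benjamini-Hochberg adjustment over all 4125 probes, limma called no member and no other probe (lowest adjusted p = 0.643, 0% called). At an unadjusted p under 0.05 stood 3 of 33 members (9.09%), against 6.67% of all tested probes (275 of 4125), a share near the background. These were Mrps9 and Mrps28 on the higher side, where 2.42% of all probes lay, and Mrpl19 on the lower side, with 4.24%. Every tested member had a log2 ratio under 0.5 in size, as had 99.56% of all probes. The sign was the same in all 3 replicates for 14 of 33 (42.4%), against 35.6% of all probes.

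Mrps9, whose bacterial relative reaches the transfer RNA in the P site, had the highest mean. It read 0.64, 0.53 and 0.15 in pairs 3, 4 and 5, the pairs that measured it. All 6 arrays with a ratio were positive, from 0.15 to 1.02, and no other member measured on 6 or more arrays had 1 sign throughout. The mean was 0.44 (SE 0.12, n = 3 replicates, adjusted p by limma = 0.643). It was 0.30 with print-tip loess, a separate fit in each of the 48 printed grids. Mrps28, related to bacterial S1, read 0.40, 0.50 and 0.19 in pairs 3, 4 and 5. Its mean was 0.36 (SE 0.10, adjusted p by limma = 0.643). All 3 pairs were positive. The single arrays gave 0.47, 1.25 and 0.62 with collagen on Cy5, and 0.33, -0.26 and -0.25 with collagen on Cy3, beside a dye effect (Cy5 over Cy3) of 0.42 (SE 0.15). Print-tip loess gave 0.20.

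Mrpl58, a peptidyl-tRNA hydrolase that rescues stalled ribosomes and is itself a large subunit protein, was positive in all 4 pairs that measured it. It read 0.12, 0.11, 0.59 and 0.19 in pairs 1, 2, 3 and 5, with a mean of 0.29 (SE 0.12), and 0.14 with print-tip loess and without replicate 3. Mrpl51, which is specific to mitochondria, had 0.56, 0.08 and 0.04 in pairs 3, 4 and 5, and a mean of 0.23 (SE 0.13). Here pair 3 stands far above the others. Mrps18a read 0.11, -0.08, 0.42, 0.22 and 0.19 in pairs 1 to 5 and had a mean of 0.21 (SE 0.11). Adjusted p by limma was 0.643 for each of these 3 genes.

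Mammals have 3 genes descended from that of bacterial S18, and none of them passed the test. Mrps18a was positive in 4 of 5 pairs, with 0.10 after print-tip loess and 0.11 without replicate 3. Mrps18b had the lowest mean of all members, with -0.74, -0.31 and -0.01 in pairs 3, 4 and 5. Its mean was -0.35 (SE 0.15, adjusted p = 0.643), and -0.14 with print-tip loess and -0.16 without replicate 3. Mrps18c, the form that takes the place of S18 in the small subunit, read -0.12, -0.08, -0.64, 0.09 and 0.06 in pairs 1 to 5. Its mean of -0.22 (SE 0.15, adjusted p = 0.657) came from pair 3, and the other pairs lay on both sides of 0. It was -0.09 with print-tip loess and -0.01 without replicate 3. The difference among the 3 genes was not tested.

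Mrpl19, a protein of a bridge between the subunits, was negative in all 4 pairs that measured it, with -0.24, -0.05, -0.31 and -0.57 in pairs 1, 2, 3 and 5. Its replicates were close, at -0.24, -0.31 and -0.31, and the mean was -0.29 (SE 0.09, adjusted p by limma = 0.643). As a mean of the 3 replicates, the arrays with collagen on Cy3 gave -0.53 and those with collagen on Cy5 -0.008. The single arrays with collagen on Cy5 read 0.18, 0.35, -0.33 and -0.10 in pairs 1, 2, 3 and 5. Those with collagen on Cy3 read from -1.04 to -0.30. The dye effect (Cy5 over Cy3) was 0.28 (SE 0.14), which adds to one orientation and subtracts from the other. With print-tip loess the mean ratio of Mrpl19 was -0.06. Mrpl28 had -0.70, -0.08 and -0.01 in pairs 3, 4 and 5, with a mean of -0.26 (SE 0.15), and -0.02 with print-tip loess. Mrpl39, which resembles a threonyl-tRNA synthetase, had -0.10, -0.09, -0.54, 0.11 and -0.11 in pairs 1 to 5, and a mean of -0.21 (SE 0.13). Mrpl3, whose bacterial relative lies near the peptidyl transferase centre, was the only member negative in all 5 pairs, with -0.06, -0.04, -0.38, -0.03 and -0.03. Its mean was -0.15 (SE 0.11, adjusted p = 0.657), and it was 0.004 with print-tip loess. The last 3 genes share a pair 3 value well below the rest.

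The bright Mrpl4 read 0.15, 0.03, 0.12, 0.11 and -0.03 in pairs 1 to 5 and had a mean of 0.08 (SE 0.09). Mrpl11 read 0.09, 0.09, -0.20, -0.06 and 0.10, with a mean of -0.03 (SE 0.10), and Mrpl12, of the stalk that recruits translation factors, had a mean of 0.03 (SE 0.09). Among dim genes Mrps22 had 0.30, 0.04 and -0.13 in pairs 3, 4 and 5, and a mean of 0.07 (SE 0.11). Each of these means was smaller than its standard error. Of the untested, Mrps14 read -0.81, 0.23, 0.16 and 0.31 in pairs 1, 2, 4 and 5, Mrps33 stayed between -0.05 and 0.13, Mrps6 had -0.24 and -0.01 in pairs 4 and 5, and Mrpl45 had 0.08 and 0.00 in pairs 1 and 2. Mrps14 alone of these moved far in any pair, and its other pairs had the opposite sign. The tested members without values here, such as Mrps12 of the decoding centre at -0.07 and Mrpl49 at 0.18, all had means between -0.20 and 0.18.

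**Figure D4:**
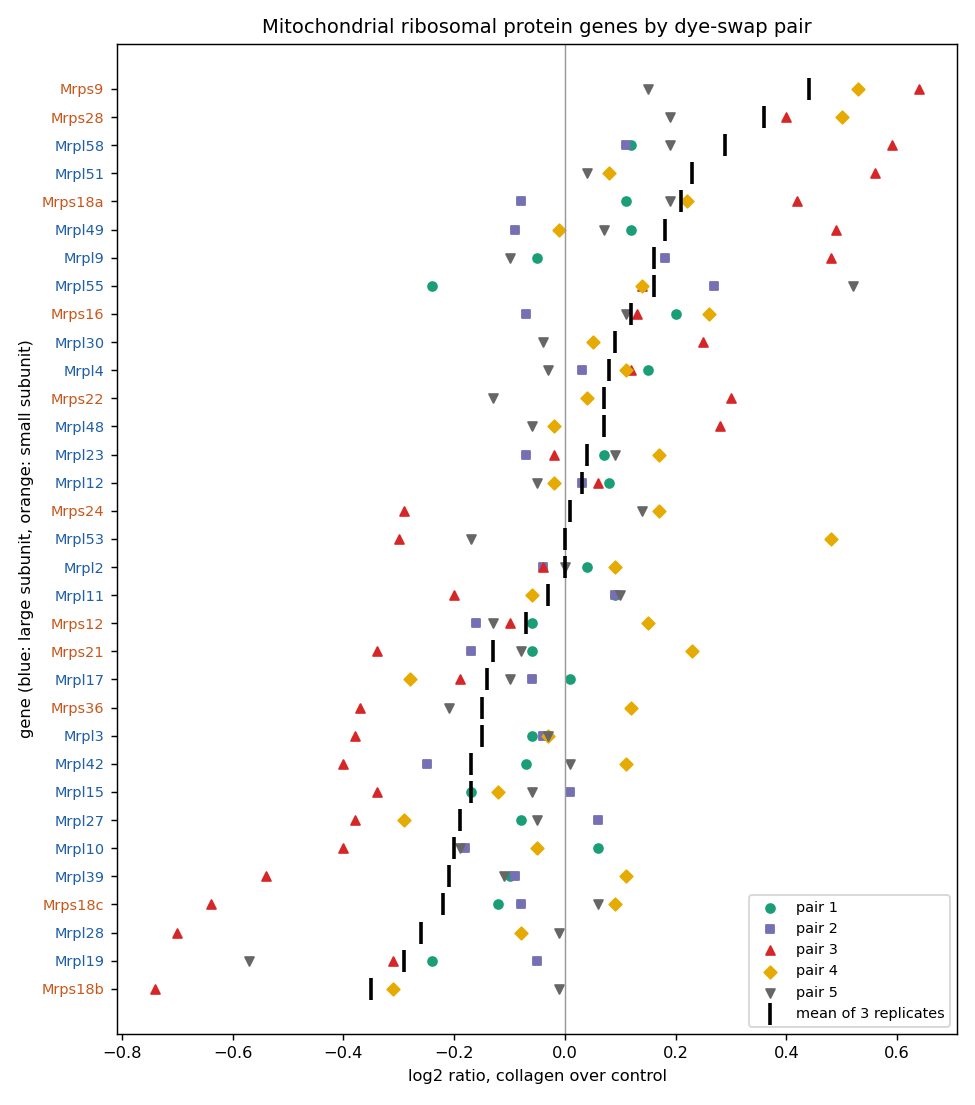
Log2 ratio of collagen over control (x axis) of the 33 tested genes (y axis, sorted by mean, blue names for the large and orange names for the small subunit), with 1 symbol per dye-swap pair and a black bar for the mean of the 3 replicates. The means run from -0.35 for Mrps18b to 0.44 for Mrps9, and pair 3 (red triangles) often lies farthest out.

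Pair 3 carried much of the spread. The SD over members was 0.40 in pair 3 and 0.12 to 0.19 in the others, against 0.36 in pair 3 and 0.22 to 0.30 in the others over all probes. Replicate 3, which is pair 3 alone, was the largest of the 3 in size for 25 of 33 members (75.8%), against 60.65% of all tested probes. Mrps9, Mrpl58, Mrpl51 and Mrps18a were at their highest there, and Mrps18b, Mrpl28, Mrps18c and Mrpl39 at their lowest. A replicate of 1 pair averages fewer arrays than one of 2 pairs, and the part of this in the spread was not tested.

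The ratios of the members followed their place on the array. In grid rows 1 to 4, a division chosen after the values were seen, 13 of 14 members were lower in collagen, with a median of -0.18. Mrps18b, Mrpl19, Mrpl28, Mrps18c, Mrpl39 and Mrpl3 were all printed there, and Mrps18a was the exception on the higher side. In grid rows 5 to 12, 16 of 19 were higher, with a median of 0.08, among them Mrps9, Mrps28, Mrpl58 and Mrpl51. All tested probes had the same tendency, with a median of -0.11 and 24.2% higher in rows 1 to 4 and 0.03 and 58.6% higher in rows 5 to 12. Spearman's rho between ratio and grid row was 0.651 over the 33 members and 0.382 over all tested probes, as a description of probes that share arrays.

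With print-tip loess the same rho over members was 0.236, and the medians were -0.01 in rows 1 to 4 and 0.01 in rows 5 to 12. The split became 6 higher and 8 lower in the first rows, and 11 and 8 in the others. The ratio became smaller in size for 26 of 33 members and changed sign for 10, and the whole range was -0.14 to 0.30. Then 2 members had an unadjusted p under 0.05, against 4.56% of all probes. Mrps9 kept the highest ratio, 0.30, and Mrps18b the lowest, -0.14.

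**Figure D5:**
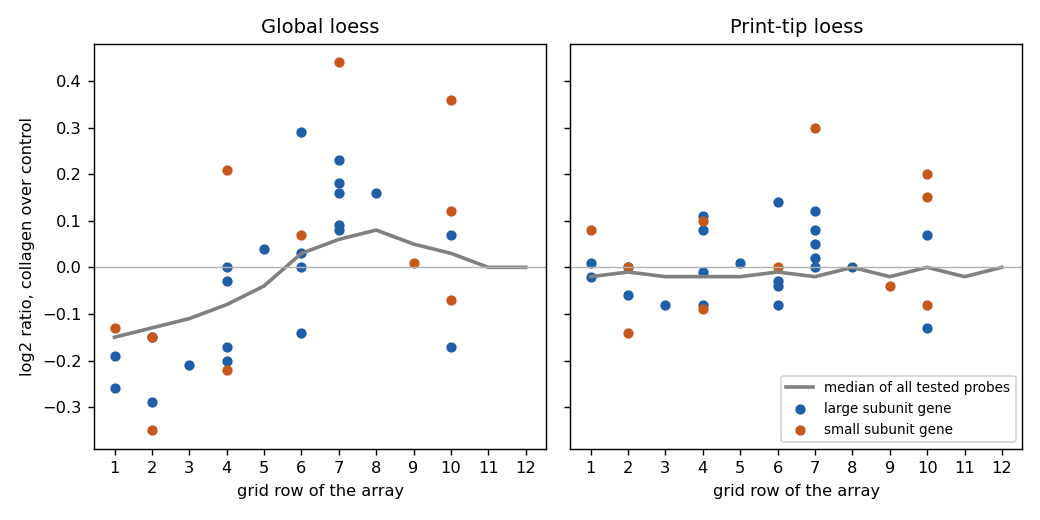
Log2 ratio of collagen over control (y axis) of the 33 tested genes by the grid row of their spot (x axis), after global loess (left) and print-tip loess (right), with the median of all tested probes as a grey line. On the left 13 of 14 genes in rows 1 to 4 lie below 0 and 16 of 19 in rows 5 to 12 above it, and on the right the trend flattens.

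The dye effect of the members, taken as Cy5 over Cy3 with the groups balanced, was called no more often than that of other probes. Its median was 0.17 log2 units over the members, with 27 of 33 positive, against 0.05 over all tested probes, with 2404 of 4125 positive. At an unadjusted p under 0.05 were 7 of 33 (21.2%), against 20.1% of all probes, a share near the background, and none of the members passed adjustment by limma, against 2.13% of all. The lowest adjusted p by limma was that of Mrps36, 0.0777, with a dye effect of 0.50 (SE 0.11). The dye effect cancels within a pair but not on single arrays. On the arrays with collagen on Cy5 the collagen ratio had a median of 0.09 for 23 large and 0.14 for 12 small members, and on those with collagen on Cy3 -0.15 for 30 large and -0.07 for 17 small members. These medians of both subunits thus turned sign with the dye, over sets of genes that were not the same. In pair 3 they did not turn, again over sets of genes that were not the same. There the large subunit had a median of -0.03 on both arrays, over 24 genes with collagen on Cy5 and 30 with collagen on Cy3. The small subunit had 0.05 over 12 genes with collagen on Cy5 and 0.21 over 17 with collagen on Cy3. Over the 11 small subunit genes measured on both arrays of pair 3, the pair median was -0.10.

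The other genes of mitochondrial translation gave no common direction either. The 4 lists of them had 37 probes, of which 15 were tested, 6 higher and 9 lower, with a median of -0.02. An unadjusted p under 0.05 by limma was found for 1 of the 15 (6.67%), against 6.67% of all tested probes, which is the background share. That was Sars2, the mitochondrial seryl-tRNA synthetase and the only tested one of its kind, with -0.26, -0.43 and -0.24 in pairs 3, 4 and 5. Its mean was -0.31 (SE 0.10, adjusted p by limma = 0.643), and -0.11 with print-tip loess. It was negative in every pair that measured it. Of the ribosomal proteins with other symbols, Chchd1 had -0.17 (SE 0.17) and Ptcd3 0.07 (SE 0.12). Slirp, which binds mitochondrial messenger RNAs with Lrpprc, was the only tested gene of the translation factor list and had 0.00 (SE 0.14).

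Of 11 tested genes for ribosome assembly and mitochondrial ribosomal RNA, 5 were higher and 6 lower. The highest were Mterf3, a regulator of mitochondrial transcription and ribosome assembly, at 0.38 (SE 0.19), and Ngrn, needed for the large ribosomal RNA, at 0.18 (SE 0.09). The lowest were Mtg2, a GTPase of large subunit assembly, at -0.32 (SE 0.19), and the ribosomal RNA methyltransferase gene Mrm1 at -0.13 (SE 0.09). None passed limma's adjusted threshold (adjusted p = 0.643 for Mterf3). The extremes again came from pair 3, at 0.98 for Mterf3 and -0.90 for Mtg2, whereas Ngrn was positive in all 4 pairs that measured it, from 0.08 to 0.28.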

How the data were processed

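Each array came with 3 deposited readings, in which, per the file headers, each spot has an intensity corrected for background in channels A and B and a flag. No source used here names the scanner or software. Flags X, Y and Z were dropped. Log2 ratios were normalised within each reading by global loess (limma, span 0.3), turned to collagen over control, and averaged over readings, the 2 arrays of a pair (both needed) and the pairs of a replicate. Probes with a value in all 3 replicates were fitted with an intercept in limma 3.58.1 under R 4.3.3 (lmFit, then eBayes, two-sided), with statmod 1.5.0 for the replicate block. P-values were adjusted by Benjamini-Hochberg over 4125 probes. The procedure was first tested on simulated data. SE is limma's moderated standard error. The normexp background correction was run only as an alternative, since the intensities were already corrected.

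The authors' deposited table gives each spot of an array 1 score, a log ratio of unstated base and direction, which served as an alternative. Its column medians lay between -0.00553 and 0.00457. The scores were read as collagen over control, so those of arrays with collagen on Cy3 were turned to give Cy5 over Cy3. So turned, the table correlated at 0.717 to 0.897 with the readings after print-tip loess.

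Genes described by pair were the 5 highest and 5 lowest, those with the same sign in every measured pair where at least 4 pairs measured them, and the 2 brightest and 2 dimmest of each subunit. Mrpl12, Mrpl17, Mrpl44, Mrpl49, Mrps12 and Mrps36 fell outside that rule and were named after their values were seen. Members and lists were chosen with earlier results of these data known. Pairs of the same title number correlated at 0.0901 and 0.141 across probes, against 0.0935 on average for different numbers. The series text names 3 biological replicates, but the animals behind each are not stated, and p-values measure the spread between these samples, which may be partly technical. The number of arrays limits the precision. Promoters were those of RefSeq. Probe and protein sequences were not used here.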

Additional observations from a re-analysis of the deposited data

Results flagged for a closer look

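Among 29 members measured in 4 or 5 pairs, 3 had a pair that lay far from the others, and among 3 of the other mitochondrial translation genes described here 1 had. Chance flags about 1 group in 20, a rate that does not carry over to genes picked for their pair values, such as Mrpl3, Mrpl58 and Mterf3. Mrpl3 read -0.38 in pair 3, against -0.06 to -0.03 in the other 4 pairs. Mrpl58 read 0.59 in pair 3, against 0.11 to 0.19 in the other 3 pairs that measured it. Mrps14 read -0.81 in pair 1, against 0.16 to 0.31 in pairs 2, 4 and 5. Mterf3 read 0.98 in pair 3, against -0.05 to 0.19 in the other 4 pairs. Without replicate 3, Mrpl58 had 0.14.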

How the results depend on the processing

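The medians of both subunits were near 0 in the main analysis (0.001 and 0.010). The large subunit median was -0.077 with median centring, -0.083 on probes with a ratio on all 10 arrays and 0.068 with reading 3 alone, and the small subunit median 0.131 with reading 1 alone and -0.184 with reading 3 alone. With collagen on Cy5 the medians were 0.087 and 0.137, and with collagen on Cy3 the large subunit had -0.145. Leaving out replicates or pairs gave -0.034 to 0.026 for the large and -0.101 to 0.010 for the small subunit.

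Counts at an unadjusted p under 0.05 changed with the number tested and also with the processing. Over the same 4125 probes the counts ran from 145 with median centring to 346 with scaling between arrays, beside 275 in the main analysis. Without background correction they were 6 of 33 members, beside 398 of 4135 probes (9.62%). With reading 2 alone they were 1 of 22 and 174 of 2785 (6.25%), and with reading 3 alone 1 of 21 and 196 of 2601 (7.54%). On all 10 arrays they were 0 of 19 and 111 of 1845 (6.02%), with 5 pairs as 5 values 0 of 19 and 168 of 1845 (9.11%), and 0 of 26 and 172 of 2939 (5.85%) in the authors' deposited table. Median centring gave 3 of 33 and 145 of 4125 (3.52%). With a replicate or pair left out they were 0 to 5 members and 120 to 347 probes: 5 of 33 and 294 of 3889 (7.56%) without pair 2, 3 of 48 and 347 of 5906 (5.88%) without pair 3, 1 of 22 and 161 of 2778 (5.80%) without pair 4, and 0 of 22 and 120 of 2595 (4.62%) without pair 5. Of all probes 1 passed adjustment with scaling between arrays (Fap), 1 in the authors' deposited table (Efhc2) and 0 to 1 with a replicate or pair left out (Xist without replicate 2), and none of these is a member. With the replicate block on 10 arrays 342 probes and 3 members had an unadjusted p under 0.05, 298 and 3 with a dye term beside it, and the medians were 0.013 and 0.010. The consensus correlation was -0.157, and the numbers were not shown to pair the samples. Probes with a dye effect at an adjusted p under 0.05 numbered 249 without background correction (1 of them a member), 57 with print-tip loess and 53 to 159 with a replicate left out (53 without replicate 3, 159 without replicate 1).

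Signs turned most often for Mrpl11 and Mrps22, whose means were near 0. Mrpl3, Mrpl4, Mrpl28, Mrps18a, Mrps18c and Mrps28 turned in 1 or 2 alternatives each, and most of these had means farther from 0. Mrpl11 read 0.078 with print-tip loess, 0.006 with scaling, 0.002 with 5 pairs, 0.019 with the replicate block, 0.007 with the dye term beside it, 0.003 with reading 3, 0.045 in the authors' deposited table and 0.053 without replicate 3, which is pair 3 (-0.094 to 0.053 with any replicate or pair left out). Mrps22 read 0.000 on the negative side without background correction, -0.004 with print-tip loess, -0.017 with median centring and -0.049 without replicate 3 (-0.049 to 0.168 with any replicate or pair left out). Mrpl3 had 0.004 with print-tip loess. In the authors' deposited table Mrpl28 had 0.041 and Mrps18c 0.024. With collagen on Cy5 Mrpl28 had 0.074, Mrpl3 0.018, Mrps18c 0.036 and Mrpl11 0.152, and with collagen on Cy3 Mrps18a had -0.125, Mrpl4 -0.062 and Mrps28 -0.058. The cause was not tested. Mrps9 stayed positive (0.205 to 0.690) and Mrps18b negative (-0.627 to -0.136) in the 18 and 17 alternatives that gave a value. Both were measured in pairs 3, 4 and 5 only, so leaving out pair 1 or 2 could not change their means. The authors' deposited table, reading 2, reading 3 and the fits without pair 4 or 5 gave no value for either. Mrpl19, Mrpl39, Mrpl51 and Mrpl58 did not turn sign in 21 or 22 alternatives, though Mrpl51 had 0.000 with median centring. The unmeasured channel B limits the other 19 members.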
